A study of Homo sapiens with 44 samples.

Results

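IL-13 and IL-17A were set directly against each other in the bulk RNA-seq libraries of Ccd-18Co, a human colon fibroblast line. Members were taken by title from the sample labels, the 4 libraries IL13 1 to 4 and the 4 libraries IL17A 1 to 4, which together are 8 of the 44 libraries in the series. Both cytokines were used at 10 ng/ml for 24 h in serum-free medium after 72 h of serum starvation, and the 4 unstimulated libraries (0 ng/ml) went through the same starvation. All libraries come from this 1 cell line, with no donor or genotype variation, and the labels do not say whether replicates were separate cultures, so p-values measure only the spread between these libraries. The comparison asks how a type 2 and a type 17 cytokine differ in their effect on the same fibroblasts, including transcripts moved in opposite directions.

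IL-13 is a product of type 2 helper T cells and innate lymphoid cells. It binds a receptor of IL13RA1 and IL4R, whose Janus kinases phosphorylate the transcription factor STAT6, while IL13RA2 binds the same ligand as a decoy. IL-17A comes from type 17 helper T cells, signals through IL17RA and IL17RC and the adaptor TRAF3IP2 to NF-κB, C/EBP factors and the nuclear regulator NFKBIZ, and is known for inducing neutrophil-attracting chemokines in stromal and epithelial cells. Both cytokines are studied in the inflamed intestine, IL-13 in eosinophilic and fibrotic disease and IL-17A in neutrophilic inflammation.

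Estimated counts summed to 1219080 to 1786182 per IL-13 library, 1208396 to 2213424 per IL-17A library and 1365019 to 1725354 per unstimulated library, and the median count of a tested gene over the 8 libraries was 31. A count of 3, the floor below which a transcript was treated as not measured when all 4 libraries of a group lay at or under it, equals 1.39 to 2.66 CPM (edgeR's counts scaled to the normalised library size), which covers counting error only. All 12 fibroblast markers on the list used (such as COL1A1, DCN and PDGFRB) passed the filter on low counts in these libraries. Of 22 markers of epithelial, endothelial, immune, glial and mural cells, 15 were at 0 in all IL-13 libraries and 13 in all IL-17A libraries, KRT20, MUC2, VWF and CD3E among them in both groups. Their summed level was 57.2 to 153 CPM of total counts in IL-13, 49.2 to 67.9 in IL-17A and 35.9 to 58.0 in unstimulated libraries.

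At an adjusted p under 0.05 (quasi-likelihood test in edgeR, adjusted by the Benjamini-Hochberg procedure over the 9513 genes tested), 365 genes (3.84% of those tested) were higher after IL-13 and 432 (4.54%) were higher after IL-17A. Both shares are the background for the list counts of this comparison given below. With an absolute log2 fold change above 1.5 in addition, the definition of a called gene used here, 112 genes (1.18%) were called higher after IL-13 and 207 (2.18%) higher after IL-17A. The 4 libraries of a cytokine all lay above the 4 of the other for 286 of these 319 called genes, against 1383 of all tested genes (14.5%). Of the 112 genes called higher after IL-13, 36 rose with IL-13 and 24 fell with IL-17A relative to unstimulated cells. Of these, 4 were in both counts, and 56 of the 112 passed in neither comparison. Of the 207 called higher after IL-17A, 102 fell with IL-13 and 20 rose with IL-17A. Of these, 10 were in both counts, and 95 of the 207 passed in neither. Both comparisons with unstimulated cells share the same 4 unstimulated libraries. For scale, 146 genes (1.53%) rose and 228 (2.4%) fell with IL-13 at an adjusted p under 0.05, and 57 (0.599%) rose and 88 (0.925%) fell with IL-17A. Without any threshold, the mean profiles of the 2 groups (log2 CPM of the 500 genes of largest variance) lay a Euclidean distance of 37.9 apart (one-sided exact permutation p = 0.0286 over 35 divisions of the 8 libraries, the smallest these can give). The same distance to the unstimulated mean was 28.95 for IL-13 and 23.18 for IL-17A.

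**Figure D1:**
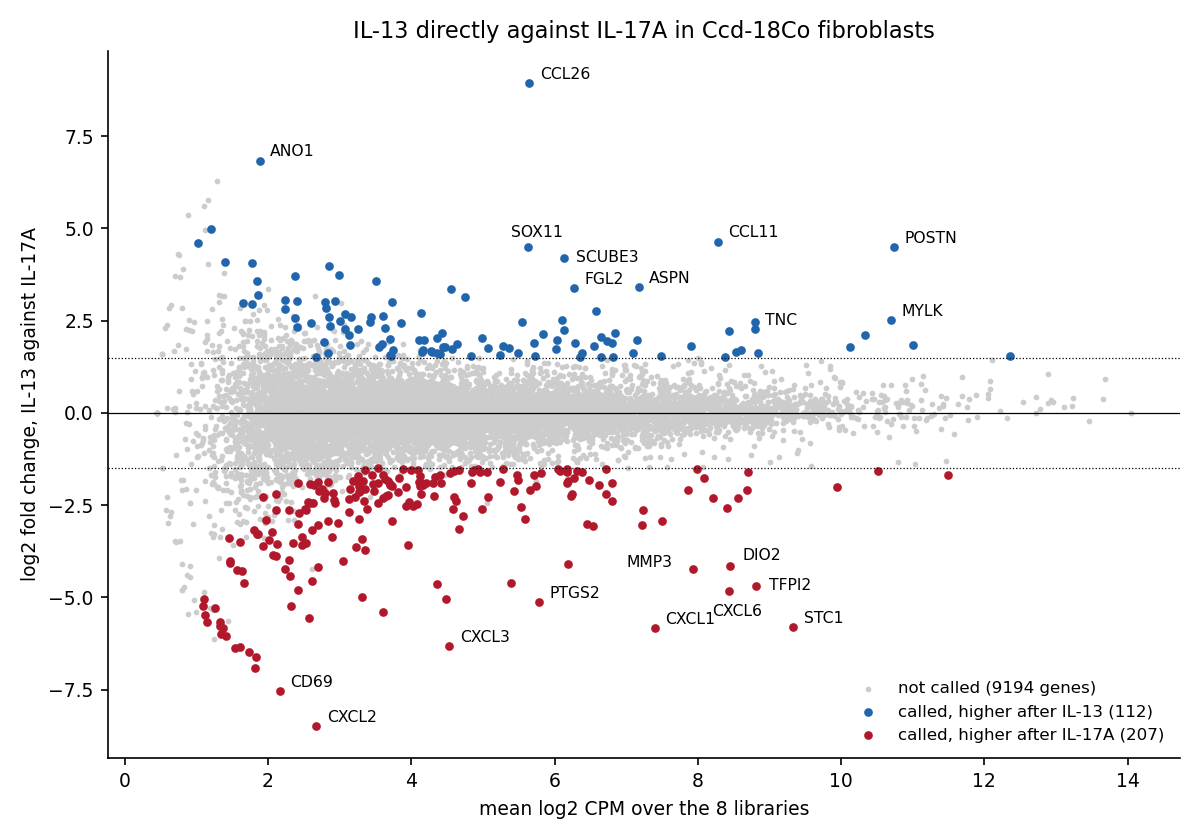
Each point is 1 of 9513 genes, with its mean log2 CPM over the 8 libraries on the x axis and its log2 fold change of IL-13 against IL-17A on the y axis, positive where IL-13 was higher. Blue points are the 112 genes called higher after IL-13 and red points the 207 called higher after IL-17A, the dotted lines mark an absolute log2 fold change of 1.5, and CCL26 (8.94) and CXCL2 lie farthest from 0.

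The ligands of the neutrophil receptors CXCR1 and CXCR2 were far higher after IL-17A than after IL-13. CXCL6 (chromosome 4, 73836640 to 73849064 of GRCh38, as are all coordinates here) was at 71.7, 42.5, 68.7 and 77.3 CPM in the 4 IL-13 libraries and 2026, 1854, 1669 and 1872 CPM in the 4 IL-17A libraries. CXCL1 (chromosome 4, 73869393 to 73871308) was at 19.9, 15.4, 34.0 and 18.6 CPM after IL-13 and 1208, 1201, 1332 and 1374 CPM after IL-17A. Every IL-17A library was above every IL-13 library for both genes. In the edgeR fit, CXCL6 was 28.5-fold higher after IL-17A (log2 fold change -4.83, standard error 0.29, adjusted p = 1.07e-16). CXCL1 was 56.9-fold higher (log2 fold change -5.83, standard error 0.44, adjusted p = 5.54e-14). CXCL3 was at 1.33, 0, 3.46 and 3.55 CPM after IL-13 and 199, 133, 193 and 176 CPM after IL-17A. CXCL3 differed by -6.32 on the log2 scale (standard error 0.85, adjusted p = 5.19e-07). CXCL8, which encodes the chemokine IL-8, was at 39.8, 0.772, 0 and 8.88 CPM after IL-13 and 431, 225, 239.6 and 329.6 CPM after IL-17A (log2 fold change -4.61, standard error 0.94, adjusted p = 0.00056), with the widest spread among IL-13 libraries of these genes. CXCL2 was at 0 in all 4 IL-13 libraries and at 19.9, 21.1, 52.9 and 29.3 CPM after IL-17A, at least 14.2-fold higher (adjusted p = 9.01e-05), and CXCL5, at or under 3 counts in every IL-13 library, was at 13.0, 21.8, 19.2 and 28.7 CPM, at least 9.51-fold higher (adjusted p = 0.000213). These 6 were the only members of the CXC list of 12 tested genes to pass in the direct comparison, and none passed as higher after IL-13 (median log2 fold change -2.85, against -0.02 over all tested genes). CXCL1, CXCL2 and CXCL3 are close paralogs, and how reads were divided among them is uncertain.

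The unstimulated libraries did not sit at one level for these chemokines. CXCL1 was at 44.1, 29.2, 28.1 and 166 CPM in unstimulated replicates 1 to 4, CXCL3 at 3.43, 2.92, 19.7 and 107 CPM and CXCL8 at 23.0, 19.7, 85.1 and 554 CPM, with replicate 4 highest for each. Against these libraries, CXCL1 (log2 fold change 4.26, standard error 0.39, adjusted p = 2.63e-10) and CXCL6 (log2 fold change 3.59, standard error 0.27, adjusted p = 8.62e-13) rose with IL-17A, and CXCL6 fell with IL-13 (log2 fold change -1.24, standard error 0.27, adjusted p = 0.00255). The fall of CXCL1 with IL-13 (log2 fold change -1.57, standard error 0.40, adjusted p = 0.0153) was lost without unstimulated replicate 4 or without IL-13 replicate 1, 2 or 4. CXCL8 after IL-17A lay within the range of the unstimulated libraries and did not pass against them (log2 fold change 0.85, adjusted p = 0.733).

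The promoters of these 6 chemokine genes are shown because they share a sequence that the other tested genes rarely hold. In the RefSeq promoter windows (250 bases before to 50 after the start of transcription, GRCh38.p14), the κB letters GGAATTTCC, searched on both strands, were found in all 6. The same letters were found in 129 of 27305 promoters (0.472%), in 0.575% of the promoters of tested genes, in 7 of 159 (4.4%) of genes called higher after IL-17A and in 2 of 90 (2.22%) of genes called higher after IL-13, among the called genes with a window. The 7 are the same 6 chemokine genes and NFKBIZ, so this share adds nothing to the observation that prompted the search. The stretch from 25 bases before to 25 bases after the match is printed 5′ to 3′ on the strand of the gene, with the match in capitals. The windows are chr4:73869290-73869348 (plus strand), chr4:74099239-74099297 (minus strand), chr4:74038734-74038792 (minus strand), chr4:73998734-73998792 (minus strand), chr4:73836564-73836622 (plus strand) and chr4:73740453-73740511 (plus strand).
CXCL1: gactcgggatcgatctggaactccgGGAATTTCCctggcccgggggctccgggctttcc
CXCL2: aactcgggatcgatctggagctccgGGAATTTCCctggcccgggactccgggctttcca
CXCL3: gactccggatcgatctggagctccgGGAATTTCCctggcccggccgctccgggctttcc
CXCL5: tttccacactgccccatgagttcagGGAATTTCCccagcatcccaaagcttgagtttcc
CXCL6: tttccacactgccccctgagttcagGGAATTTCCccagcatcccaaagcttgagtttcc
CXCL8: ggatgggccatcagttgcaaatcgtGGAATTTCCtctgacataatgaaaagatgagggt
The stretches of CXCL1 and CXCL3 were identical at 55 of 59 positions and those of CXCL5 and CXCL6 at 58 of 59, whereas CXCL1 and CXCL6 shared 27 of 59. The first base of the match lay 78 bases before the start for CXCL1, 89 for CXCL6 and 91 for CXCL8. The same letters stood in the windows of NFKBIZ and, on the other strand, NFKBIA. A match describes these letters only.

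Other known targets of IL-17A followed the chemokines in direction. NFKBIZ, the nuclear IκB protein that carries IL-17A signalling to secondary genes (chromosome 3, 101827991 to 101861022), was at 8.63, 10.0, 3.46 and 10.7 CPM after IL-13 and 85.8, 67.9, 48.9 and 82.1 CPM after IL-17A. NFKBIZ differed by -3.14 on the log2 scale (standard error 0.38, adjusted p = 4.81e-08). It rose with IL-17A against unstimulated cells (log2 fold change 2.81, standard error 0.37, adjusted p = 4.15e-06) and did not pass with IL-13 (log2 fold change -0.33). SOD2, mitochondrial superoxide dismutase, was at 196, 177, 208 and 211 CPM after IL-13 and 709, 891, 800.5 and 1000.4 CPM after IL-17A (log2 fold change -2.10, standard error 0.28, adjusted p = 4.07e-07), and likewise rose with IL-17A (log2 fold change 1.69, adjusted p = 0.000289). The monocyte chemokines CCL2 (374 ± 37.4 CPM after IL-13 and 849 ± 21.4 CPM after IL-17A, SD, n = 4, log2 fold change -1.18, standard error 0.25, adjusted p = 0.000787) and CCL7 (9.7 ± 4.76 CPM and 66.5 ± 6.85 CPM, log2 fold change -2.78, standard error 0.54, adjusted p = 0.000331) were also higher after IL-17A, with no overlap between the libraries. NFKBIA, the inhibitor of NF-κB, was 2.61-fold higher after IL-17A (adjusted p = 0.00029). Of the 31 tested genes on the list of IL-17A targets, 18 were higher after IL-17A, the 6 CXC genes above among them, and 1, STEAP1, was higher after IL-13 (median log2 fold change -2.10 over all 31). The call on STEAP1 was lost without IL-13 replicate 4 or IL-17A replicate 1. MMP1, MMP3, PTGS2, PTGES, CSF3 and LIF, also among the 18, are counted again in the protease, prostaglandin or cytokine lists below. The call on LIF held in 1 of 8 fits that left out 1 library. Against unstimulated cells, 8 of these 31 genes rose and 0 fell with IL-17A, while 8 fell and 2, TNFAIP6 and STEAP1, rose with IL-13. The falls of CXCL1, CXCL3, CXCL5 and CXCL8 with IL-13 were lost without unstimulated replicate 4, and that of CXCL8 also without IL-13 replicate 2 or 3. The rise of TNFAIP6 held in 2 of 8 fits that left out 1 library of the groups compared. Of the rises with IL-17A, that of NFKBIA held in 3 of 8 such fits and that of CXCL3 in 6 of 8.

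The type 2 chemokines and matrix genes showed the reverse. CCL26 (eotaxin-3, chromosome 7, 75769533 to 75789896), a ligand of the eosinophil receptor CCR3, was at 587, 519.6, 1169 and 1357 CPM after IL-13 and 0, 3.9, 3.21 and 1.15 CPM after IL-17A. CCL26 differed by 8.94 on the log2 scale (standard error 0.58, adjusted p = 5.08e-15). CCL11 (eotaxin-1, chromosome 17, 34285742 to 34288334), a ligand of the same receptor, was at 1393, 1384, 1629 and 1796 CPM after IL-13 and 72.4, 56.2, 58.5 and 60.3 CPM after IL-17A. CCL11 differed by 4.64 on the log2 scale (standard error 0.34, adjusted p = 2.22e-14). POSTN (periostin, chromosome 13, 37562583 to 37598844), a matricellular protein of fibrotic tissue, was at 6071, 6169, 10311 and 10767 CPM after IL-13 and 348, 338, 336 and 449 CPM after IL-17A, 22.6-fold apart. POSTN differed by 4.50 on the log2 scale (standard error 0.22, adjusted p = 3.88e-20). No IL-13 library overlapped an IL-17A library for these 3 genes, and all 3 passed against unstimulated cells with IL-13 but not with IL-17A. POSTN stood at 366 ± 76.0 CPM (SD, n = 4) in unstimulated cells and its log2 fold change with IL-17A was 0.01 (standard error 0.19), while that with IL-13 was 4.51. CCL11 was at 73.6 ± 12.5 CPM in unstimulated cells (SD, n = 4), and its log2 fold changes were -0.25 with IL-17A and 4.39 with IL-13.

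TNC (tenascin C), a matrix glycoprotein of tissue repair, was at 1025, 939.6, 835 and 1135 CPM after IL-13 and 187, 238, 240.4 and 154 CPM after IL-17A. TNC differed by 2.27 on the log2 scale (standard error 0.26, adjusted p = 2.19e-08). TGM2 (transglutaminase 2), which crosslinks matrix proteins, was at 176, 159, 364 and 316 CPM and 39.9, 28.1, 49.7 and 32.7 CPM (log2 fold change 2.75, standard error 0.24, adjusted p = 1.17e-11). VCAM1, the adhesion molecule for the integrin of eosinophils and lymphocytes, was at 160.0, 174, 187 and 188 CPM and 45.5, 62.4, 65.7 and 29.3 CPM (log2 fold change 1.82, standard error 0.29, adjusted p = 1.36e-05). All 3 rose with IL-13 and did not pass with IL-17A against unstimulated cells. IL1RL1, the receptor for IL-33, was at 30.5, 35.5, 32.3 and 41.7 CPM after IL-13 and 5.1, 4.68, 0.801 and 0.574 CPM after IL-17A (log2 fold change 3.57, standard error 0.89, adjusted p = 0.0054), and DPP4 was 2.43-fold higher after IL-13 (adjusted p = 0.00206). Of the 16 tested genes known to respond to IL-4 or IL-13, 9 were higher after IL-13 and 1, CCL2, was higher after IL-17A (median log2 fold change 1.35), and 7 of the 16 rose with IL-13 against unstimulated cells. The call on RUNX2, among the 9, was lost without IL-13 replicate 1 or 2 or IL-17A replicate 1, 2 or 3. The rise of IL1RL1 with IL-13, among the 7, held in 3 of 8 fits that left out 1 library of the groups compared. Of 6 tested CC and CX3C chemokines, CCL11 and CCL26 were higher after IL-13 and CCL2 and CCL7 after IL-17A.

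**Figure D2:**
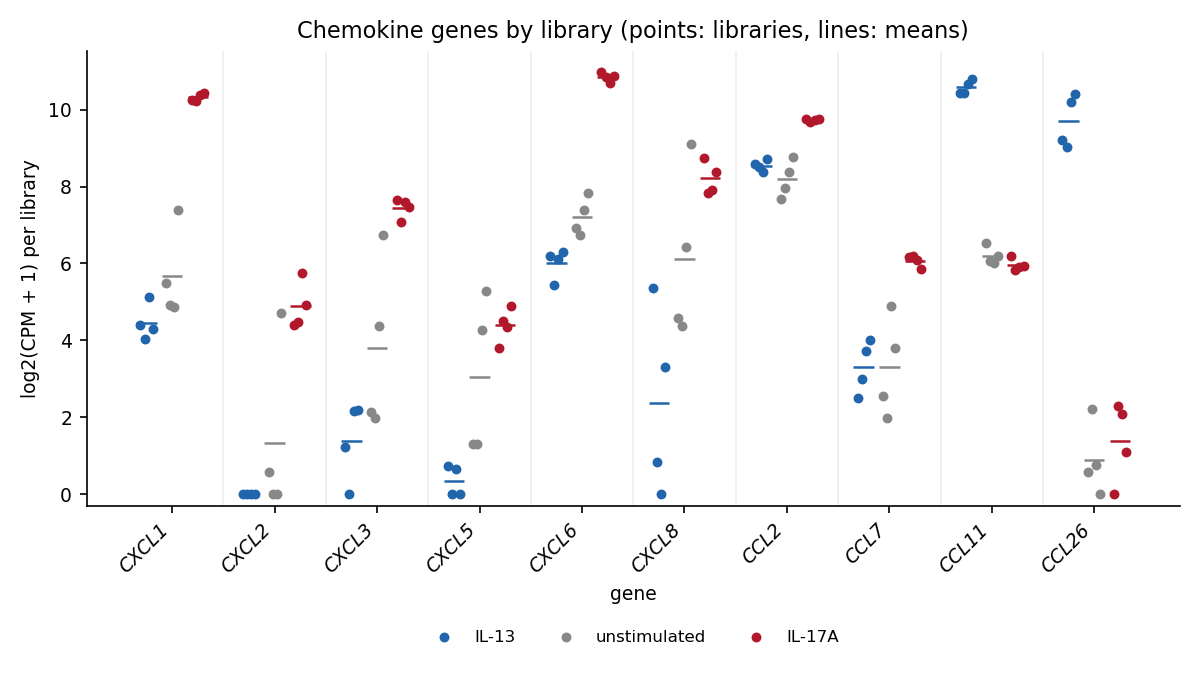
Each point is 1 library, with log2(CPM + 1) on the y axis for 10 chemokine genes on the x axis, in blue for IL-13, grey for unstimulated and red for IL-17A (4 libraries each), and short lines mark the mean of the points. The 6 CXC genes, CCL2 and CCL7 sit higher after IL-17A than after IL-13, and CCL11 and CCL26 sit higher after IL-13, while unstimulated libraries are spread widely for CXCL2, CXCL3, CXCL5 and CXCL8.

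Contractile and smooth muscle genes were higher after IL-13 than after IL-17A. Of 23 tested, 14 were higher after IL-13 and 0 after IL-17A (median log2 fold change 1.19). Against unstimulated cells, 9 of the 23 fell with IL-17A and 2 rose with IL-13, with medians of -0.85 and 0.40. MYLK, myosin light chain kinase (chromosome 3, 123610049 to 123884332), was at 4017, 4390.1, 4017 and 3550.2 CPM after IL-13, 744, 673, 709 and 650.1 CPM after IL-17A and 2134, 2181, 1333 and 1473 CPM in unstimulated cells, 3 ranges that did not overlap. ACTA2, α-smooth muscle actin (chromosome 10, 88935074 to 88991339), was at 1179, 1319, 937 and 776 CPM after IL-13 and 162, 209.9, 196 and 190.1 CPM after IL-17A. ACTA2 differed by 2.47 on the log2 scale (standard error 0.39, adjusted p = 1.24e-05). In unstimulated libraries ACTA2 ran from 254 to 853 CPM, and its fall with IL-17A (log2 fold change -1.47, standard error 0.38, adjusted p = 0.0312) was lost without unstimulated replicate 1 or 2 or IL-17A replicate 1, 2, 3 or 4. CSRP1, an actin-bundling LIM protein, was 2.74-fold higher after IL-13 (log2 fold change 1.46, standard error 0.28, adjusted p = 0.000302). Its fall with IL-17A, among the 9, held in 4 of 8 fits that left out 1 library and was lost without unstimulated replicate 1. That replicate was the highest unstimulated library for both ACTA2 and CSRP1. MYH11, smooth muscle myosin heavy chain, passed with 11.3 ± 5.26 CPM after IL-13 against 1.23 ± 1.04 CPM after IL-17A (SD, n = 4, adjusted p = 0.0353), a call that was lost without any 1 replicate other than IL-13 replicate 4.

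**Figure D3:**
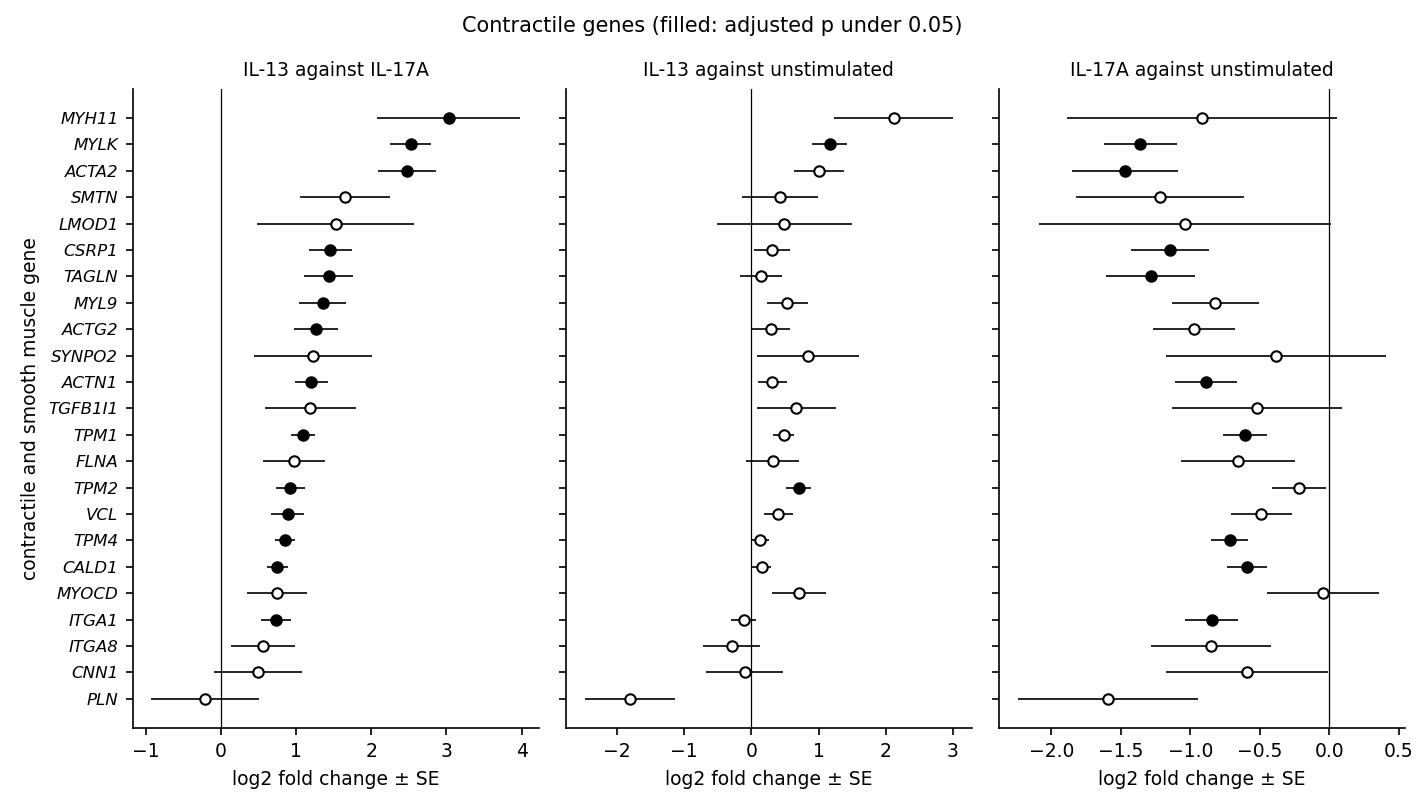
For each of 23 contractile and smooth muscle genes, the point gives the log2 fold change and the bar its standard error from edgeR, in IL-13 against IL-17A (left), IL-13 against unstimulated (middle) and IL-17A against unstimulated (right), each panel on its own x axis. Filled points passed an adjusted p under 0.05, which holds for 14 genes on the left, 2 in the middle and 9 on the right, and all but PLN lie above 0 on the left.

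Secreted matrix genes leaned the same way. Of 30 tested matricellular and elastic fibre genes, 11 were higher after IL-13 and 1, the proteoglycan VCAN, was higher after IL-17A (median log2 fold change 0.48). THBS1 (thrombospondin 1) was at 3060.3, 3459, 2076 and 2207 CPM after IL-13 and 633, 679.5, 529.6 and 669.6 CPM after IL-17A. THBS1 differed by 2.10 on the log2 scale (standard error 0.27, adjusted p = 2.17e-07). ASPN (asporin), a small leucine-rich proteoglycan, was at 571, 697, 349 and 327 CPM and 53.3, 47.6, 28.8 and 50.5 CPM (log2 fold change 3.42, standard error 0.46, adjusted p = 6.16e-07), with no overlap between the cytokines and IL-13 replicates 1 and 2 above replicates 3 and 4. Collagens moved less, with 4 of 19 tested chains higher after IL-13 and 0 after IL-17A (median 0.30). These were the 3 chains of type VI collagen on the list, COL6A1 (138 ± 10.2 CPM against 48.6 ± 13.3 CPM), COL6A2 (64.2 ± 11.1 CPM against 22.0 ± 8.7 CPM) and COL6A3 (592 ± 47.0 CPM against 289.9 ± 35.6 CPM, all SD, n = 4), and COL5A2 (652 ± 53.4 CPM against 397 ± 45.2 CPM, SD, n = 4). Among 15 tested genes of collagen crosslinking and hydroxylation, 3 were higher after IL-13, lysyl oxidase LOX (4.7-fold, log2 fold change 2.23, standard error 0.28, adjusted p = 1.27e-07), TGM2 and the collagen chaperone SERPINH1 (2.56-fold, adjusted p = 0.00321). The prolyl hydroxylase subunit P4HA3 was the 1 gene on this list higher after IL-17A, and it fell with IL-13 (at most 1.99 CPM in an IL-13 library).

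Several matrix-degrading enzymes went the other way. Of 26 tested matrix proteases and inhibitors, 8 were higher after IL-17A and 1 after IL-13, and against unstimulated cells 7 of the 26 fell with IL-13 and 0 rose. With IL-17A, 1 of the 26, ADAMTS5, rose and 2 fell, the protease inhibitor TIMP3 among them (log2 fold change -1.40, adjusted p = 0.0148). MMP3 (stromelysin-1, chromosome 11, 102835801 to 102843609) was at 49.1, 20.8, 79.6 and 88.8 CPM after IL-13, 1196, 935, 1294 and 1041 CPM after IL-17A and 649, 499, 534 and 861 CPM in unstimulated cells. Between the cytokines, MMP3 differed by -4.23 on the log2 scale (standard error 0.37, adjusted p = 7.61e-12). Every IL-13 library was below every unstimulated library, and every unstimulated library was below every IL-17A library. MMP10 (stromelysin-2, log2 fold change -4.09, standard error 0.42, adjusted p = 1.06e-09) and MMP1 (interstitial collagenase, log2 fold change -2.31, standard error 0.27, adjusted p = 2.01e-08) had the same order of group means, and for all 3 the fall with IL-13 passed and the difference with IL-17A did not. Hyaluronan genes passed only towards IL-17A, 4 of 7 tested, namely HMMR, VCAN, CEMIP and HAS2. The call on HAS2 was lost without IL-13 replicate 1, 2 or 3 or IL-17A replicate 1 or 2, and that on CEMIP without IL-13 replicate 3 or 4 or IL-17A replicate 1, 3 or 4. HAS2, a hyaluronan synthase, fell with IL-13 from 369.9 ± 96.2 CPM to 160.2 ± 48.5 CPM (SD, n = 4, adjusted p = 0.0015).

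Among genes of prostaglandin synthesis and stromal cytokines, more passed as higher after IL-17A than after IL-13. PTGS2, the inducible cyclooxygenase (chromosome 1, 186671791 to 186680922), was at 16.6, 6.95, 5.19 and 7.1 CPM after IL-13, 320.5, 309.7, 252 and 388 CPM after IL-17A and 20.6, 43.7, 126 and 193 CPM in unstimulated cells. Between the cytokines, PTGS2 differed by -5.13 on the log2 scale (standard error 0.76, adjusted p = 3.37e-06). Its fall with IL-13 passed (log2 fold change -3.39, standard error 0.75, adjusted p = 0.0039) and its difference with IL-17A did not (log2 fold change 1.74, adjusted p = 0.154). PTGES, the prostaglandin E synthase, was 6.42-fold higher (adjusted p = 0.00171) and PLA2G4A, the phospholipase that releases arachidonic acid, 5.89-fold higher after IL-17A (adjusted p = 3.28e-05). Neither PTGES nor PLA2G4A passed against unstimulated cells with IL-17A or with IL-13. In all, 6 of 13 tested genes of the prostaglandin list were higher after IL-17A and 1 after IL-13 (median log2 fold change -1.68). Relative to unstimulated cells, 1 of the 13 rose and 0 fell with IL-17A, while 2 fell and 1 rose with IL-13. Of 47 tested stromal cytokines and growth factors, 16 were higher after IL-17A and 2 after IL-13. Relative to unstimulated cells, 1 of the 47 rose and 0 fell with IL-17A, while 8 fell and 0 rose with IL-13. AREG (amphiregulin), an EGF receptor ligand, was at 0, 0, 2.31 and 3.55 CPM after IL-13 and 57.5, 46.0, 53.7 and 91.9 CPM after IL-17A (log2 fold change -5.38, standard error 1.00, adjusted p = 0.000175), and IL1B was at 0, 0, 5.77 and 16.9 CPM and 73.3, 99.1, 37.7 and 45.4 CPM (log2 fold change -3.58, standard error 0.78, adjusted p = 0.00136). Relative to unstimulated cells, neither AREG (adjusted p = 0.302) nor IL1B (adjusted p = 0.261) passed with IL-17A. With IL-13, AREG fell (adjusted p = 0.0356), which held in 2 of 8 fits that left out 1 library, and IL1B did not pass. VEGFD also passed between the cytokines, but its call was lost without any 1 replicate other than IL-13 replicate 1. CSF3 passed as well, and its call was lost without IL-13 replicate 1, 2 or 3 or IL-17A replicate 3 or 4.

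Cell cycle genes were lower after IL-13 than after IL-17A. Of 34 tested, 14 were higher after IL-17A and 0 after IL-13 (median log2 fold change -0.74). Against unstimulated cells, 13 fell with IL-13 and 0 passed in either direction with IL-17A. TOP2A, the topoisomerase of dividing cells (chromosome 17, 40388525 to 40417896), was at 33.2, 44.0, 25.4 and 37.3 CPM after IL-13, 162, 174, 146 and 154 CPM after IL-17A and 194, 200.5, 144 and 179 CPM in unstimulated cells. Between the cytokines, TOP2A differed by -2.19 on the log2 scale (standard error 0.31, adjusted p = 1.19e-06). CENPF, a kinetochore protein, was at 20.6, 20.8, 12.7 and 28.4 CPM after IL-13 and 114, 79.6, 91.3 and 69.5 CPM after IL-17A (log2 fold change -2.12, standard error 0.33, adjusted p = 8.32e-06), and the mitotic kinases BUB1B and BUB1 were at or under 3 counts in every IL-13 library. In bulk RNA, fewer dividing cells and less of these transcripts per cell cannot be told apart.

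Of the 9513 genes, 17 (0.179%) moved in opposite directions, with an adjusted p under 0.05 against unstimulated cells for both cytokines and opposite signs. IL-17A raised and IL-13 lowered 10 of them (CXCL1, CXCL3, CXCL6, TFPI2, DIO2, MT2A, ADAMTS5, AKR1C1, GNG11 and BDKRB2), and IL-13 raised and IL-17A lowered 7 (FGL2, MYLK, MTHFD2, DDIT3, PLS3, UGDH and GBP1). Since the same values chose these genes and both comparisons use the same 4 unstimulated libraries, their levels are given as a description without a further test. In all 17 the libraries of the cytokines did not overlap with each other, and in 13 the unstimulated libraries also lay between them without overlap, an order found in 55 tested genes (0.578%). The number depended on the unstimulated libraries, with 10 genes left without unstimulated replicate 1 and 11 each without replicate 2 or replicate 4. Over the 12 fits that each left out 1 library, ADAMTS5, BDKRB2, CXCL6, DDIT3, DIO2, FGL2, MYLK and PLS3 met the rule in all 12, and GBP1 met it in 0.

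**Figure D4:**
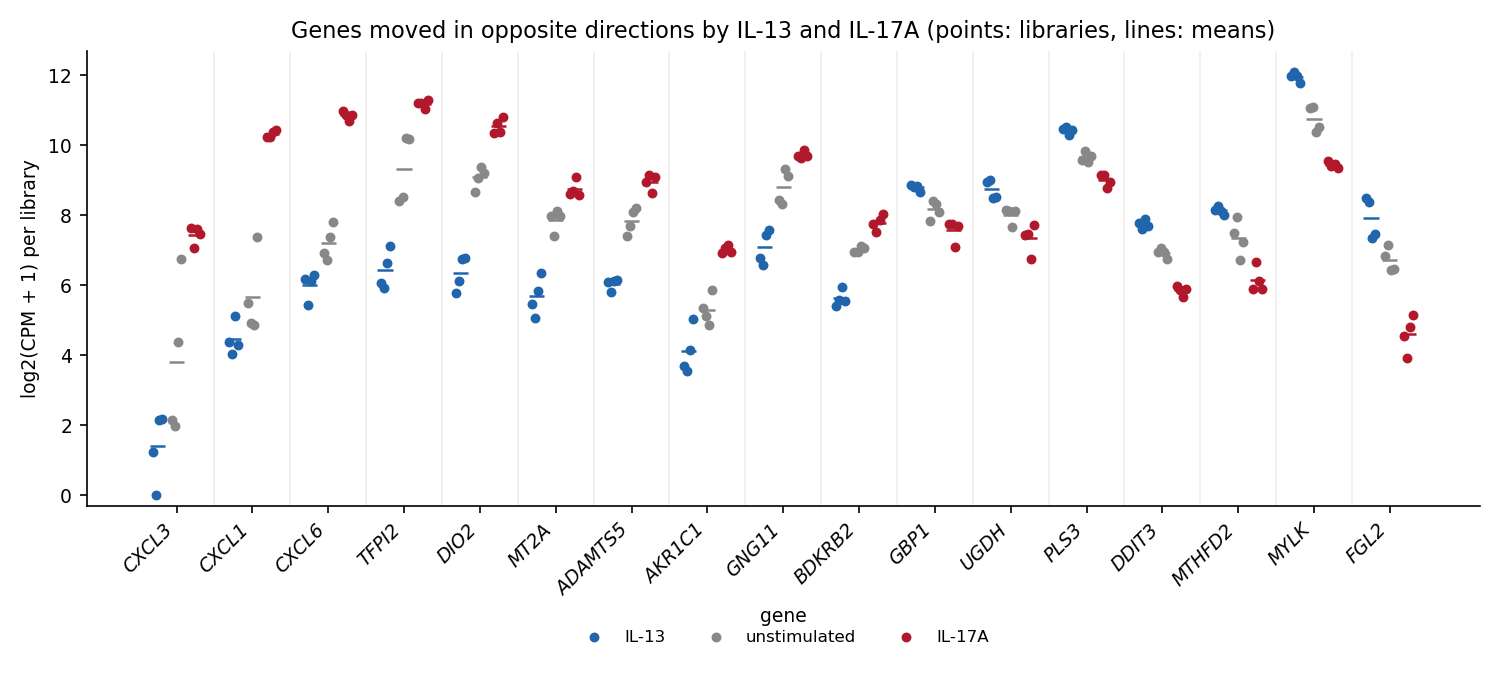
Each point is 1 library, with log2(CPM + 1) on the y axis for the 17 genes moved in opposite directions on the x axis, in blue for IL-13, grey for unstimulated and red for IL-17A (4 libraries each), and short lines mark the mean of the points. The 10 genes on the left run upwards from IL-13 through unstimulated to IL-17A and the 7 on the right run downwards, with overlap of the unstimulated libraries with a cytokine group in 4 of the 17.

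Among the genes lowered by IL-13 and raised by IL-17A, DIO2, the deiodinase that activates thyroid hormone (chromosome 14, 80197526 to 80387757), was at 53.8, 67.9, 106 and 109 CPM after IL-13, 405, 537, 671 and 594 CPM in unstimulated cells and 1317, 1595, 1333 and 1779.7 CPM after IL-17A (log2 fold changes of -2.71 (standard error 0.28) with IL-13 and 1.45 (0.26) with IL-17A). TFPI2, a Kunitz-type protease inhibitor of the matrix (chromosome 7, 93885396 to 93890753), was at 65.7, 59.5, 98.7 and 139 CPM, 338, 367, 1193 and 1156 CPM and 2349, 2391, 2119 and 2526 CPM in the same order (log2 fold changes of -3.07 (standard error 0.44) with IL-13 and 1.62 (0.41) with IL-17A). Unstimulated replicates 3 and 4 were above replicates 1 and 2 for TFPI2, and its rise with IL-17A was lost without unstimulated replicate 1 or 2 or IL-17A replicate 2 or 4. ADAMTS5, an aggrecan-cleaving protease (chromosome 21, 26917922 to 26967088), was at 67.7, 54.8, 69.3 and 70.2 CPM after IL-13, 167, 205, 270.2 and 297 CPM in unstimulated cells and 494, 563, 396 and 544 CPM after IL-17A (log2 fold changes of -1.84 (standard error 0.23) with IL-13 and 1.09 (0.22) with IL-17A). BDKRB2, the bradykinin receptor of resting tissue (chromosome 14, 96204679 to 96244166), was at 41.2, 47.1, 60.6 and 46.2 CPM, 124, 122, 137 and 132 CPM and 213, 183, 234 and 260.2 CPM (log2 fold changes of -1.39 (standard error 0.18) with IL-13 and 0.79 (0.17) with IL-17A). All 12 libraries of ADAMTS5 and of BDKRB2 fell into 3 separate ranges. MT2A, a metal-binding metallothionein, averaged 53.1 ± 20.8 CPM, 238 ± 48.0 CPM and 435 ± 77.0 CPM after IL-13, without stimulation and after IL-17A (SD, n = 4). GNG11, a G protein γ subunit, averaged 142 ± 46.8 CPM, 467 ± 157 CPM and 849 ± 62.3 CPM, and AKR1C1, an aldo-keto reductase of steroid and prostaglandin metabolism, 17.9 ± 9.75 CPM, 39.8 ± 12.7 CPM and 129 ± 9.32 CPM (SD, n = 4). The rise of GNG11 with IL-17A held in 2 of 8 fits that left out 1 library of the groups compared, and the fall of AKR1C1 with IL-13 in 3 of 8. MT2A and AKR1C1 have close paralogs, so their counts are uncertain in part.

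Among the genes raised by IL-13 and lowered by IL-17A, FGL2, a secreted fibrinogen-like regulator of T cells (chromosome 7, 77193369 to 77199848), was at 358, 335, 163 and 174 CPM after IL-13, 114, 142, 85.1 and 87.4 CPM in unstimulated cells and 22.3, 14.0, 27.2 and 34.5 CPM after IL-17A (log2 fold changes of 1.26 (standard error 0.27) with IL-13 and -2.12 (0.29) with IL-17A). DDIT3, the stress-induced transcription factor CHOP (chromosome 12, 57516588 to 57521737), was at 217, 195, 235 and 207 CPM, 122, 132, 122 and 107 CPM and 62.1, 57.7, 49.7 and 58.6 CPM (log2 fold changes of 0.82 (standard error 0.19) with IL-13 and -1.08 (0.20) with IL-17A). PLS3, the actin-bundling protein plastin 3, was at 1404, 1464, 1264 and 1400.4 CPM, 759, 916, 740.2 and 829.9 CPM and 566, 571, 441 and 499 CPM (log2 fold changes of 0.77 (standard error 0.13) with IL-13 and -0.64 (0.13) with IL-17A). The 3 groups did not overlap for any of these genes, as for MYLK (log2 fold changes of 1.17 (standard error 0.26) with IL-13 and -1.36 (0.26) with IL-17A). MTHFD2, a mitochondrial folate enzyme, averaged 282 ± 19.0 CPM after IL-13, 170.2 ± 59.4 CPM in unstimulated cells and 71.7 ± 20.5 CPM after IL-17A (SD, n = 4). UGDH, which makes the UDP-glucuronate used for glycosaminoglycans, averaged 432 ± 80.9 CPM, 259.9 ± 38.5 CPM and 166 ± 44.1 CPM (SD, n = 4), and GBP1, an interferon-inducible GTPase, 445 ± 26.4 CPM, 291 ± 49.4 CPM and 192 ± 37.6 CPM (SD, n = 4). The rise of MTHFD2 with IL-13 held in 2 of 8 fits that left out 1 library of the groups compared. The fall with IL-17A held in 2 of 8 for UGDH and in 1 of 8 for GBP1.

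Promoter stretches of FGL2 and ASPN are shown because both genes were called higher after IL-13 and both windows hold the palindromic letters TTCNNNNGAA. STAT6 binds this spacing and can also bind others. Letters in this form were found on either strand in 6.37% of 27305 promoters, in 4.86% of those of tested genes, in 12 of 90 (13.3%) of genes called higher after IL-13 and in 12 of 159 (7.55%) of genes called higher after IL-17A. For comparison the C/EBP letters TTGCNNAA were in 7.08% of the promoters of tested genes, 8 of 90 (8.89%) of genes higher after IL-13 and 15 of 159 (9.43%) of genes higher after IL-17A. No test was made of these shares. Of the 80 named genes with a window, 8 held the STAT letters. These were FGL2, ASPN, GPAT3, PTX3 and TENT5C, higher after IL-13 than after IL-17A, and AKR1C1, BUB1 and VCAN, higher after IL-17A. Against unstimulated cells, FGL2 and ASPN rose with IL-13, whereas GPAT3, PTX3 and TENT5C did not pass. TENT5C fell with IL-17A (log2 fold change -4.59, adjusted p = 0.002). The direct call on PTX3 held in 1 of 8 fits that left out 1 library and that on BUB1 in 6 of 8. The windows of CCL26, POSTN, TNC, VCAM1 and IL1RL1 held 0 matches. The printed stretches are chr7:77199855-77199914 and chr9:92482581-92482640 of GRCh38.p14, both on the minus strand, 5′ to 3′, with the match in capitals.
FGL2: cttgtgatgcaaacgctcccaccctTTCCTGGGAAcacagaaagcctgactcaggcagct
ASPN: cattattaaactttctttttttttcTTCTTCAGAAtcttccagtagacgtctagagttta
The match of FGL2 began 70 bases and that of ASPN 109 bases before the start of transcription.

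Among the genes with the largest differences outside these groups, SOX11, a developmental transcription factor (chromosome 2, 5692384 to 5701385), was at 221, 232, 221 and 226 CPM after IL-13 and 14.4, 7.8, 8.81 and 8.04 CPM after IL-17A (log2 fold change 4.49, standard error 0.43, adjusted p = 1.05e-10), and it rose with IL-13 against unstimulated cells (log2 fold change 3.75, standard error 0.41, adjusted p = 1.09e-08). SCUBE3, a secreted signalling protein (chromosome 6, 35213956 to 35253079), was at 389.7, 374, 283 and 279 CPM and 22.7, 29.6, 2.4 and 16.1 CPM (log2 fold change 4.20, standard error 0.49, adjusted p = 2.23e-08). Neither gene had an IL-17A library near the IL-13 range. ANO1, a calcium-activated chloride channel, was at 14.6, 10.8, 2.89 and 10.7 CPM after IL-13 and at 0 in all 4 IL-17A libraries, at least 4.96-fold higher (adjusted p = 0.00492). On the IL-17A side, STC1, the secreted glycoprotein stanniocalcin 1 (chromosome 8, 23841929 to 23854806), was at 79.7, 40.9, 100.4 and 140.3 CPM after IL-13 and 4949, 5207, 4101 and 5749 CPM after IL-17A (log2 fold change -5.79, standard error 0.80, adjusted p = 7.94e-07). The unstimulated libraries of STC1 were at 337, 557, 4259.6 and 3357 CPM, with replicates 3 and 4 near the IL-17A level, and its fall with IL-13 passed (log2 fold change -4.56, standard error 0.76, adjusted p = 5.89e-05) while its difference with IL-17A did not (adjusted p = 0.445). CD69, an early activation antigen of leukocytes, was at 0 in all IL-13 libraries and 28.3, 15.6, 6.41 and 10.3 CPM after IL-17A, at least 6.97-fold higher (adjusted p = 8.04e-05). PTPRC, which marks leukocytes in general, had at most 2 counts in any IL-17A library and 0 in the IL-13 libraries.

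Some receptor and signalling genes passed in the direct comparison. Of 9 tested genes of the IL-13 pathway, IRS2 (2.22 ± 2.08 CPM after IL-13 and 18.7 ± 8.01 CPM after IL-17A, SD, n = 4, log2 fold change -2.99, standard error 0.66, adjusted p = 0.00149) and IRS1 (adjusted p = 0.0236), the insulin receptor substrates that also serve the IL-4 receptor, were higher after IL-17A. The IRS1 call was lost without IL-13 replicate 1 or IL-17A replicate 1 or 4. The decoy receptor IL13RA2 was at 157, 88.8, 341 and 406 CPM after IL-13, 269, 324, 261 and 330.2 CPM after IL-17A and 68.1, 62.7, 122 and 142 CPM in unstimulated cells, and the cytokine groups overlapped (log2 fold change -0.26, standard error 0.42, adjusted p = 0.806). Against unstimulated cells IL13RA2 rose with IL-17A (log2 fold change 1.59, adjusted p = 0.0478), a call lost in 6 of 8 fits that left out 1 library, and did not pass with IL-13 (log2 fold change 1.33, adjusted p = 0.0758). Of 10 tested genes of the IL-17A pathway, NFKBIZ and TRAF3 were higher after IL-17A, and TAB2, an adaptor of the kinase MAP3K7, was higher after IL-13 (25.6 ± 8.99 CPM against 4.94 ± 2.33 CPM, SD, n = 4, adjusted p = 0.0136). The TRAF3 call was lost without IL-13 replicate 1, 2 or 4 or IL-17A replicate 3 or 4. The receptor chains IL17RA (at most 11 counts in any of the 8 libraries) and IL17RC (at most 3) were below the filter and not tested. Both are named for their place in the pathway, after their values were seen.

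The remaining lists stand beside the 3.84% of all tested genes that passed as higher after IL-13 and the 4.54% higher after IL-17A. Of 25 tested antioxidant and metal handling genes, 3 were higher after IL-13 and 5 after IL-17A, the latter including SOD2, MT2A, MT1X (5.02-fold, adjusted p = 0.000527) and MT1E, whose call was lost without IL-13 replicate 1, 2 or 3 or IL-17A replicate 3. Of 14 NF-κB genes 3 and of 15 feedback inhibitors 2 were higher after IL-17A, and in both lists 0 after IL-13. With all genes that have any count in the fit, 2 feedback inhibitors passed as higher after IL-13. SOCS1 and CISH, feedback inhibitors of STAT signalling that the filter on low counts removed, had at most 11 and 14 counts in an IL-13 library and 0 in each IL-17A and unstimulated library. NFKBIA and TNFAIP3 stand on both lists. Of 12 adhesion and checkpoint ligands 2, VCAM1 and ALCAM, were higher after IL-13 and 1, NECTIN2, after IL-17A. The ALCAM call was lost without IL-17A replicate 3 and the NECTIN2 call without any other than IL-13 replicate 1 or IL-17A replicate 1. Of 33 interferon-stimulated genes 2, XAF1 (3.63-fold, adjusted p = 7.33e-05) and GBP1, were higher after IL-13 and 2, IFIT2 and IFI44L, after IL-17A (median log2 fold change 0). The IFIT2 call was lost without IL-17A replicate 3 and the IFI44L call without any other than IL-17A replicate 3 or 4. Of 21 cholesterol genes 0 passed in the direct comparison. The shares for interferon-stimulated genes lay near the 3.84% and 4.54% of all tested genes.

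**Figure D5:**
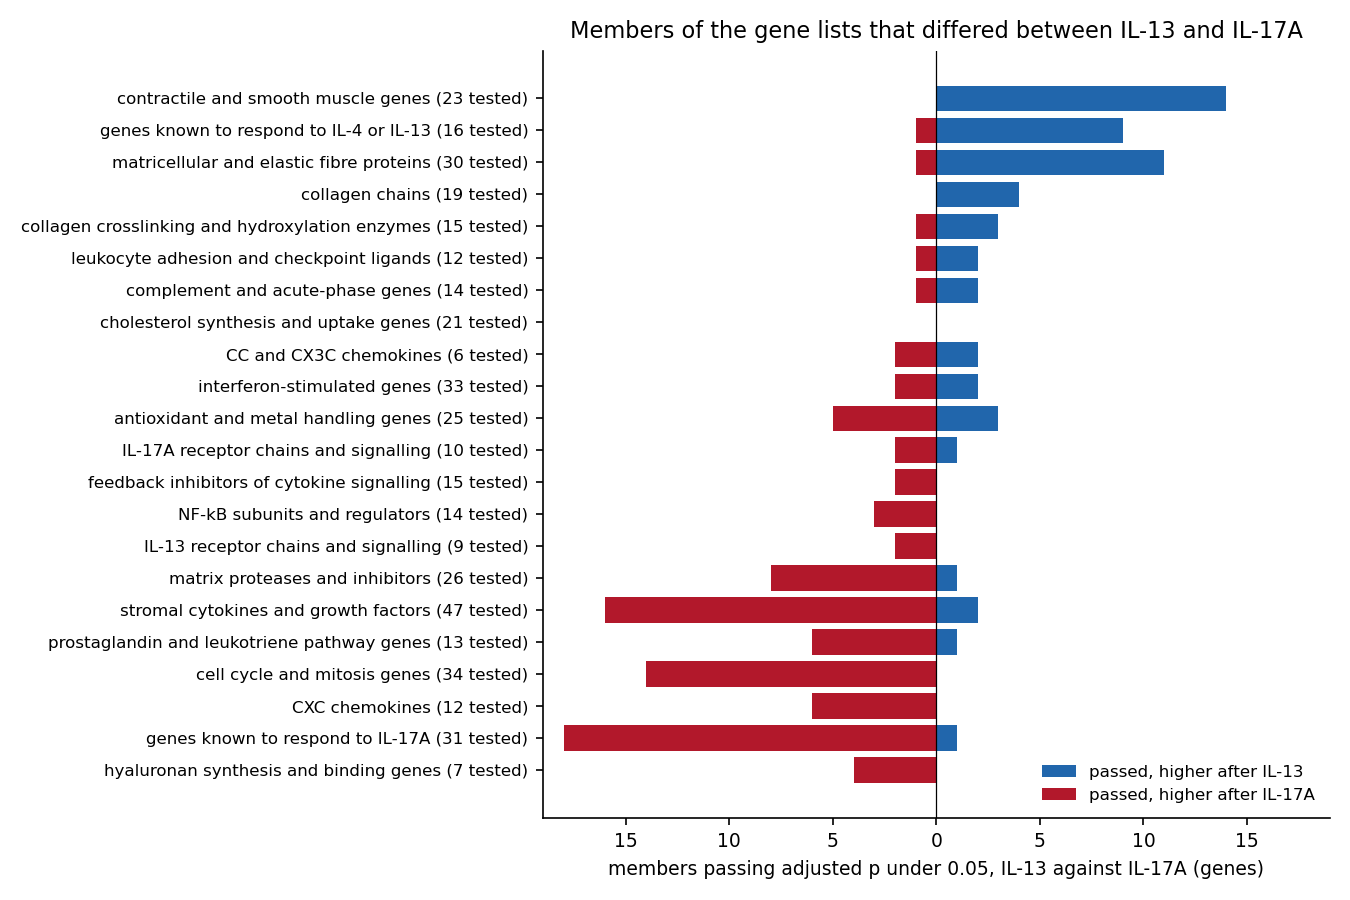
Bars count the members of 22 gene lists (the number tested is in brackets) that passed an adjusted p under 0.05 in IL-13 against IL-17A, to the right in blue where IL-13 was higher and to the left in red where IL-17A was higher. Contractile genes (14 of 23) lead on the IL-13 side and IL-17A targets (18 of 31), stromal cytokines and growth factors (16 of 47) and cell cycle genes (14 of 34) on the other. Among all 9513 tested genes, 3.84% passed as higher after IL-13 and 4.54% as higher after IL-17A. Some genes stand on several lists.

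Among the markers used to check the cells, VIM (1399 ± 211 CPM after IL-13 and 614 ± 50.6 CPM after IL-17A) and THY1 (132 ± 53.6 CPM and 34.0 ± 9.64 CPM) were higher after IL-13 and PDGFRA (325 ± 68.2 CPM and 824 ± 91.2 CPM) was higher after IL-17A (all SD, n = 4), 3 of the 12 fibroblast markers. Of the 4 tested markers of other cells, KRT18, a keratin of simple epithelia, was at 16.6, 6.95, 10.4 and 3.55 CPM after IL-13 and at or under 3 counts in all IL-17A libraries, at least 4.77-fold higher after IL-13 (adjusted p = 0.000761). It fell with IL-17A against unstimulated cells (adjusted p = 0.00346), while the epithelial markers EPCAM and CDH1 had at most 2 counts in any of the 12 libraries. KRT8, the partner keratin of KRT18, was below the filter, with at most 9 counts in an IL-13 library, 2 in an IL-17A library and 8 in an unstimulated library. RGS5, a marker of mural cells, was at 49.1, 51.0, 129 and 113 CPM after IL-13, 44.5, 49.9, 52.1 and 43.6 CPM after IL-17A and 17.1, 24.8, 21.1 and 10.9 CPM in unstimulated cells. RGS5 rose with IL-13 (log2 fold change 2.21, adjusted p = 0.000319) and did not pass with IL-17A (log2 fold change 1.36, adjusted p = 0.0793) or between the cytokines (log2 fold change 0.85, adjusted p = 0.192). The part of the marker differences in the other results was not tested.

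Of the 105 genes that the naming rule returned, 103 passed in the direct comparison, and 80 of these also passed in each of the 8 fits that left out 1 IL-13 or IL-17A library. In GENCODE release 44, 44 of the 105 overlap another annotated symbol, for example MYLK with MYLK-AS1, FGL2 with CCDC146, ASPN with CENPP, DDIT3 with MARS1, TFPI2 with GNGT1 and ACTA2 with ACTA2-AS1. These are overlaps of whole gene spans, and overlap of exons was not examined. Whether counting used strand is not given in the sources used here, so reads from any shared exons may not be told apart.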

How the data were processed

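The authors prepared libraries with the NEBNext Ultra II RNA kit, sequenced them on an Illumina NovaSeq, quantified reads with kallisto (version 0.48.0, per the submitters' processing notes, which also list hg38) and deposited estimated counts per gene symbol and library, not scaled for depth. The transcriptome release and strand setting are not given in the sources used here. The table lists 40663 symbols, and 5.77% of its values are not whole numbers.

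The deposited estimated counts were rounded. All 44 libraries of the 11 groups were fitted together in edgeR (version 4.0.16, R version 4.3.3) with filterByExpr (9513 genes), trimmed mean of M values and 1 coefficient per group (common biological coefficient of variation 0.331), so the groups share 1 estimate of the spread. Contrasts were tested by the quasi-likelihood test with Benjamini-Hochberg adjustment over all genes tested. A gene passed at an adjusted p under 0.05 and was called with an absolute log2 fold change above 1.5 in addition. Standard errors are the log2 fold change divided by the square root of the F statistic. Fold values without log2, other than bounds, are the edgeR log2 fold changes put on a linear scale. Bounds marked "at least" are set against 3 counts in every library.

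The comparison, the 24 gene lists and the motifs were chosen with earlier results of these data known. Genes named are the members of the receptor and target lists that passed in any contrast, the 15 largest called differences in each direction without overlap of libraries and with a mean log2 CPM of at least 1, the genes moved oppositely, and up to 4 members of each other list by size. Other members are named only to complete a count or mark a cell type. In each of 18 replicate pairs the chi-square per degree of freedom of the counts was 4.89 or more, above sampling noise, and 0 pairs were identical. The code was tested on simulated data, where 95 of 96 genes set 3 apart between the cytokines on the log2 scale were called. The rule for opposite movement found 31 of those 96, and 1 of 97 genes set 2 apart. That rule can therefore miss genes that move oppositely by such amounts. DESeq2 (version 1.42.0) and the other alternatives are given in the closing section. Promoter windows come from RefSeq (GRCh38.p14), with 7824 of the tested genes and 80 of the 105 named genes matched, and coordinates from GENCODE release 44. Other cytokines of the series were not analysed here beyond the shared fit. The complement and acute-phase list is not reported here gene by gene.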

Additional observations from a re-analysis of the deposited data

Results flagged for a closer look

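Among 125 groups of 4 libraries examined (44 genes and the totals), 15 held a library far from the other 3 by Dixon's criterion at the 95% level, where chance gives about 6.2. Unstimulated replicate 4 stood high in 5 of these, and all 5 bear on the unstimulated level of genes higher after IL-17A. It was at 166 CPM for CXCL1 (28.1 to 44.1 in the other 3), 25.3 for CXCL2 (0 to 0.49), 107 for CXCL3 (2.92 to 19.7), 21.2 for CD69 (1.41 to 4.37) and 4.78 for ADGRL2 (0 in each). UGDH was at 203 CPM in unstimulated replicate 3, below the 276 to 285 of the others.

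In the IL-13 libraries, ADAMTS5 was at 54.8 CPM in replicate 2 (67.7 to 70.2 in the others), PTGS2 at 16.6 in replicate 1 (5.19 to 7.1) and BUB1B at 1.15 in replicate 3 (0 in each). In the IL-17A libraries, POSTN was at 449 CPM in replicate 4 (336 to 348), SOX11 at 14.4 in replicate 1 (7.8 to 8.81), GBP1 at 136 in replicate 3 (205 to 214) and ALOX5AP at 9.76 in replicate 4 (0.78 to 0.928). FRY at 0.464 in replicate 1 and TENT5C at 1.15 in replicate 4 were the single nonzero IL-17A libraries of these genes, below the level of 3 counts.

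The 17 genes moved in opposite directions are listed here as well, since the effects of the cytokines differed in sign, which is the rule that chose them. The direct comparison is the difference of the same effects and adds no independent support.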

How the results depend on the processing

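The counts of called genes moved by over 1.5 times only with the fold-change threshold. With an absolute log2 fold change above 1, 535 genes were called (213 higher after IL-13, 322 higher after IL-17A), and with no threshold 797 (365 and 432). Under DESeq2 size factors, DESeq2's Wald test, either other filter on counts, the fit of only the libraries compared, and both blocks below, the total was between 262 and 374. Leaving out 1 library gave 260 to 318 calls, 91 to 120 higher after IL-13 and 169 to 198 higher after IL-17A. The number of genes moved oppositely was less stable than these counts. It was 9 with an absolute log2 fold change above 1 in both comparisons and 3 above 1.5, 31 with DESeq2's Wald test, 45 with all genes that have any count, and 10 to 18 on leaving out 1 library, and the cause was not tested. All 17 remained under DESeq2's Wald test, 15 with any count and 12 of 19 in the fit of only the libraries compared, where CXCL3, GBP1, GNG11, MTHFD2 and UGDH dropped out.

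Over all genes tested, replicate numbers did not pair the samples. Deviations of same-numbered IL-13 and IL-17A libraries from their group means correlated at 0.001, -0.003, 0.067 and -0.018. Those of IL-13 and unstimulated libraries correlated at 0.025, 0.065, -0.085 and 0.039. Several named genes still split replicates 1 and 2 from 3 and 4 in both IL-13 and unstimulated libraries. Examples are GNG11, TFPI2, ASPN, STC1, DIO2, FGL2, SCUBE3 and IL13RA2. CCL26, POSTN and TGM2 split in this way among the IL-13 libraries but not the unstimulated ones. Over 3818 genes of higher level, the split correlated at -0.06 between IL-13 and unstimulated libraries. Correlations over many genes can miss a split in a part of them. The labels do not say whether replicates 1 and 2 were a separate experiment, and this was not tested. With the replicate number as a block, 324 genes were called (108 higher after IL-13, 216 higher after IL-17A) and 38 moved oppositely, all 17 among them. With replicates 1 and 2 against 3 and 4 as a block, an alternative chosen after seeing the data, 319 were called and 33 moved oppositely.

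The distance was 36.96 to 39.25 on leaving out 1 library, 53.24 over 2000 genes, 71.04 over all genes and 45.91 with a prior count of 0.5. For the 105 named genes, 1428 of 1551 alternative values kept direction and side of the threshold, 121 were no longer past it, 1 newly passed, and 1 changed sign. That was IL13RA2, whose log2 fold change ran from -0.579 to 0.0413 on leaving out 1 library and did not pass, the highest without IL-13 replicate 2. At a median count of 31 per gene, low transcripts such as IL17RA could not be compared.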
